A study of Mus musculus with 12 samples.

Results

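Imprinted genes are transcribed mainly or only from the copy inherited from one parent, because methylation set in egg or sperm marks the 2 copies differently. They lie in clusters, where a noncoding RNA or a methylated control region often governs neighbouring genes from one centre. Many of them act on fetal growth and on the developing brain, and several change their imprint or their level as neural precursors mature. The 34 imprinted genes described here are the rows of a mouse count table whose symbol was on a fixed list, and all 34 were found among 46517 genes. The counts cannot tell the parental copies apart, so every value below is the sum over both.

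The table held 12 libraries of 3 kinds, with 4 each. The normal astrocytes are adult cerebellar astrocytes per the deposited sample sheet, from mice labelled C57BL/6. The tumor-derived astrocytes came from tumor and carry the same strain label. The tumor granule neuron progenitors (GNPs) are the malignant cells of the cerebellar tumor medulloblastoma, and their strain labels are C57BL/7, C57BL/8, C57BL/9 and C57BL/10 for libraries 1 to 4. The labels give laser capture of individual cells from frozen sections for every library, while the deposited sample sheet lists cultured GNPs, a conflict that the sources used here do not settle. No source used here gives the tumor-driving genotype, the age of the tumor-bearing mice, how cells were recognised for capture or which animal gave which library, so a p-value reflects spread between libraries, which may be technical. Any difference in age or culture between the groups cannot be told apart from cell type. The strain numbers of the GNPs rise by 1 per library, so whether they stand for real differences in strain is uncertain. Fewer cells of a type in a capture and less RNA per cell cannot be told apart either.

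Total counts were 8154401 to 12626596 per library. A count of 0 allows up to 3 counts, which was 0.248 to 0.367 CPM (counts scaled to a common library size), by counting error only. Genes with at least 1 count numbered 14768 to 16306 in normal, 19174 to 20460 in tumor-derived and 16633 to 17938 in GNP libraries. Of the imprinted genes described here, 20 to 23, 25 to 26 and 25 to 26 had a count, in the same order. Whether normal libraries missed more transcripts for technical reasons was not tested. Folds given below as at least a value do not cover such a loss. GNP libraries 1, 2 and 4 nearly matched one another, as no other pair within a group did, and are counted as 1 sample, so a GNP mean ± SD has n = 2 (their mean, and library 3), while both astrocyte groups have n = 4. Astrocyte markers summed to 5750 to 12500 CPM in normal, 972 to 2040 CPM in tumor-derived and 486 to 714 CPM in GNP libraries, and none of the 12 was at 0 throughout a group. Markers of mature neurons and Purkinje cells summed to 3760 to 12900 CPM in the normal libraries, 1080 to 2080 CPM in the tumor-derived ones and 130 to 180 CPM in GNPs, so RNA of neuronal marker genes was present in the libraries labelled normal astrocyte. Markers of granule progenitors and cell division summed to 124 to 223 CPM in normal, 1760 to 2850 CPM in tumor-derived and 2500 to 2540 CPM in GNP libraries. Microglia and macrophage markers summed to 179 to 462, 640 to 877 and 1.36 to 6.97 CPM in the same order. Oligodendrocyte markers summed to 479 to 1000 CPM in normal, 210 to 296 CPM in tumor-derived and 30.1 to 42.5 CPM in GNP libraries. Normal libraries 1 and 2 had 1050 and 803 CPM of meningeal fibroblast markers, against 55.7 and 82.3 CPM in libraries 3 and 4, and normal library 4 had 242 CPM of choroid plexus and ependyma markers, against 8.49 to 28.6 CPM in the others. Tumor-derived library 1 differed from the other 3 in several lists, with more of the neuronal markers (2080 CPM against 1080 to 1180) and of the pericyte and smooth muscle markers (85.1 against 13.5 to 26.7), and less of the astrocyte (972 against 1530 to 2040) and of the progenitor and division markers (1760 against 2550 to 2850). Its striated muscle genes summed to 941 CPM, against 12.2 to 18.5 CPM in the other tumor-derived, 2.97 to 12.4 CPM in the normal and 590 to 847 CPM in the GNP libraries.

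Of the 34 genes, 28 had at least 1 count in some library and 24 had enough counts to be tested. In the comparison with normal astrocytes, tumor-derived astrocytes had 4 imprinted genes higher (16.7% of the 24) and 8 lower (33.3%), by edgeR's quasi-likelihood test with an adjusted p under 0.05. Among all 14393 genes tested, 17.4% were called higher and 16.0% lower, 33.4% in either direction. GNPs had 6 of the 24 higher than normal astrocytes (25.0%, against 14.1% of all genes) and 5 lower (20.8%, against 13.4%), with 27.5% of all genes called in either direction. Between tumor-derived astrocytes and GNPs, 0 of the 24 were called higher, against 7.84% of all genes, and 2 were called lower (8.33%, against 4.36%), with 12.2% of all genes called in either direction. Beside that 0, 1 gene was higher at an unadjusted p under 0.05, DESeq2 called 1, and edgeR with all 12 libraries kept separate called 2. The median log2 fold change of the 24 was -0.85 between tumor-derived and normal astrocytes, -0.58 between GNPs and normal astrocytes and -0.38 between tumor-derived astrocytes and GNPs, where the medians of all tested genes were 0.05, 0.1 and -0.03. The first 2 comparisons share the normal libraries, so their values are not independent of each other. Nespas, at 0 in normal astrocytes, lay far above either median at its fitted value, and in tumor-derived astrocytes at its bound as well. Its bound in GNPs rests on library 3. Without GNP library 3 the count higher in GNPs was 2 rather than 6, and without tumor-derived library 2 or library 3 the count lower than in GNPs was 1 rather than 2. In all, 15 of the 24 (62.5%) were called in at least 1 comparison and 9 in none, where 44.2% of all tested genes were called in at least 1.

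**Figure D1:**
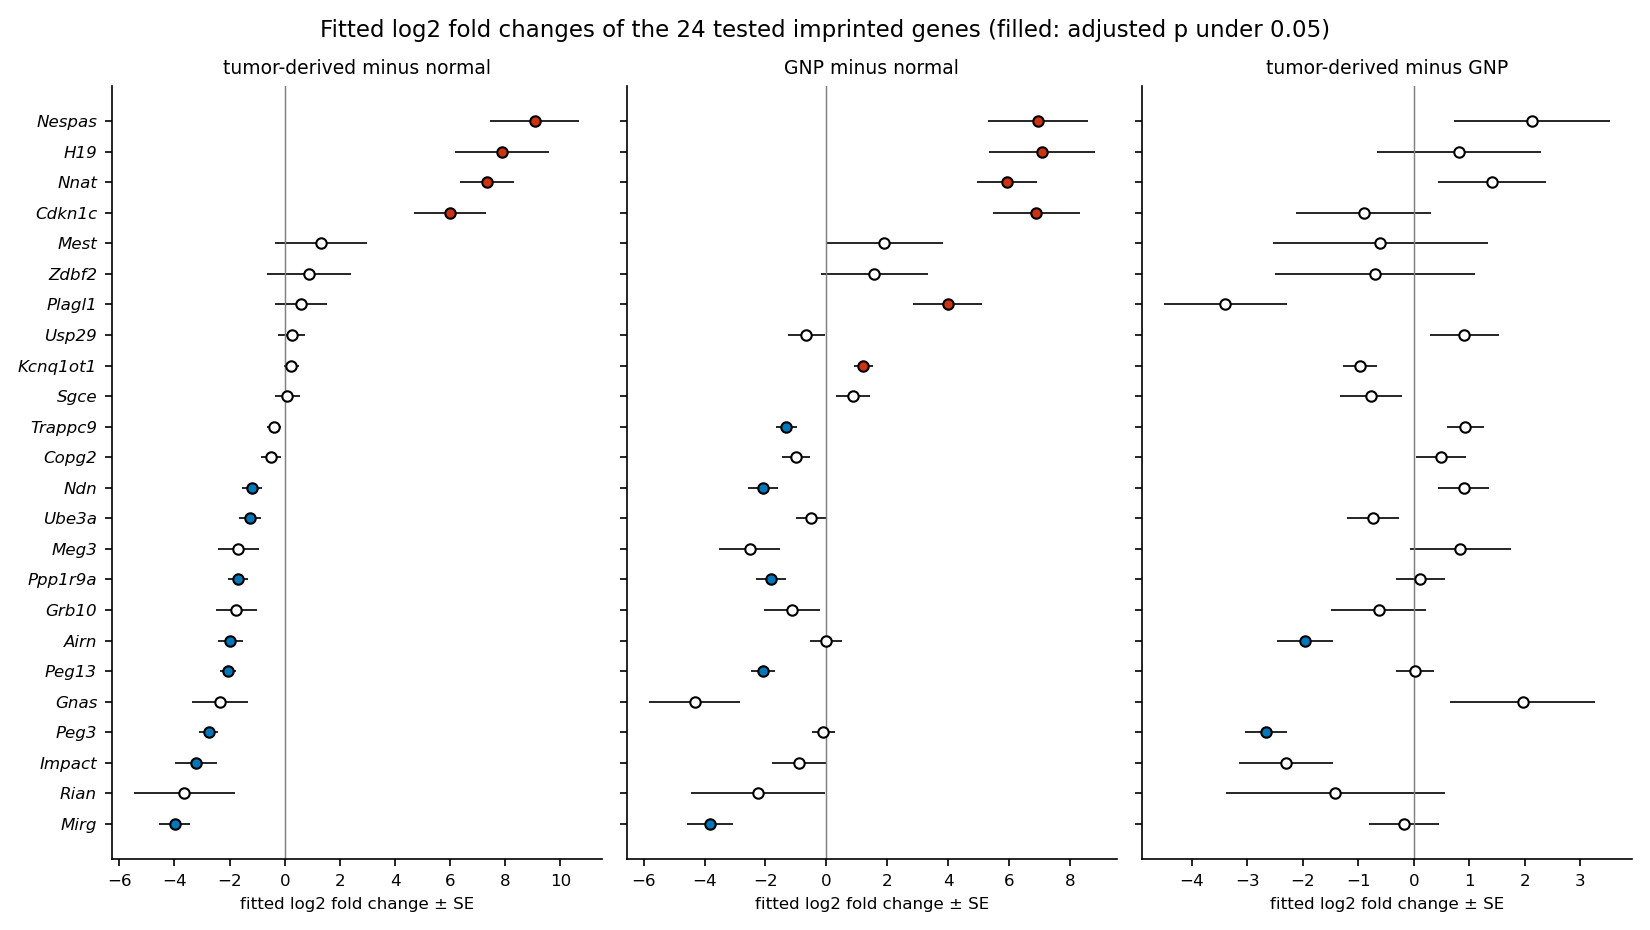
Fitted log2 fold change (horizontal axis, ± SE) of the 24 tested imprinted genes (vertical axis) in the 3 comparisons, with filled points for an adjusted p under 0.05, red for higher and blue for lower. Nnat, Nespas, H19 and Cdkn1c lie far to the right in both comparisons with normal astrocytes, Mirg and Peg13 to the left in both, and Peg3 and Airn to the left in tumor-derived astrocytes only; the points of Nespas against normal astrocytes depend on how counts of 0 are handled.

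Promoter windows of 300 bases (250 before and 50 after each RefSeq start, build GRCm38.p6) were found for 25 of the 34 genes, 35 windows in all. Their median number of CpG dinucleotides was 15, against 7 over all 32851 windows. The letters TGCCGC, or GCGGCA on the other strand, are the hexamer that ZFP57 recognises when it is methylated, ZFP57 being the zinc finger protein that protects imprints in the embryo. They stood in 10 of the 35 windows (28.6%), of 9 genes, and in 11.6% of all windows. A pair of the 10 are nearly coincident windows of Mest, and so 1 place. The palindrome GGGGCCCC, a site of the imprinted factor PLAGL1, stood in 3 of 35 windows (8.57%) and in 1.08% of all. The first 2 sequences are the windows of Nnat and Plagl1, 2 of the 9 genes, with TGCCGC or its complement in capitals, 1 match each. Both were called higher in GNPs than in normal astrocytes. The others of the 9 were not: Copg2, Grb10, Meg3, Mest and Zdbf2 were called in no comparison, and Snurf and Zim1 were not tested. Whether levels differ with this motif was not tested. The third is the window of Usp29, which shares 263 bases with that of Peg3 on the opposite strand, with GGGGCCCC in capitals. Both overlapping windows hold the same letters, so 2 of the 3 windows with this motif are 1 place. The 2 sets of windows were not matched for CpG number, whose part in the shares of either motif was not tested. A match is a description of the letters, not a bound site.
Nnat, chr2:157559828-157560127, plus strand: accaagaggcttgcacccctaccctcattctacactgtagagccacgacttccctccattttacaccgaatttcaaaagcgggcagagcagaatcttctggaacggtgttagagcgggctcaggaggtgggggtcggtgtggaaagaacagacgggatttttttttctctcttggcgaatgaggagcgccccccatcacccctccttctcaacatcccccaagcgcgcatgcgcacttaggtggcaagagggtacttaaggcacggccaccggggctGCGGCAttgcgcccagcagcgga
Plagl1, chr10:13090582-13090881, plus strand: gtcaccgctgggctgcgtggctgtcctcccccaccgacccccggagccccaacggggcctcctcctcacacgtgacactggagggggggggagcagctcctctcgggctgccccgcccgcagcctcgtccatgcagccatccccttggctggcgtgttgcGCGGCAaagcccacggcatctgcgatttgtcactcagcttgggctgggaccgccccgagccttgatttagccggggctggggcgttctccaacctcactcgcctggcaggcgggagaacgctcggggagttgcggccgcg
Usp29, chr7:6730333-6730632, plus strand: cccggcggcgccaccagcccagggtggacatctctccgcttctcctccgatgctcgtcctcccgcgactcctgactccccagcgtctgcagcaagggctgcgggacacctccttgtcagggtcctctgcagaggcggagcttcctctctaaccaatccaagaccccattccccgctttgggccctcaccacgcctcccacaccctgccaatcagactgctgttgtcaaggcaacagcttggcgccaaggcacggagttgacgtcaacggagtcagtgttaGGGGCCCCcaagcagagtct

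Mirg and H19 are also precursors of microRNAs, which act through a seed at bases 2 to 8. Within the span of Mirg, RefSeq places 14 hairpins on the same strand with 26 mature forms, and within H19 there is 1 hairpin with 2 mature forms. Only 1 seed was shared by 2 mature forms of Mirg, that of mmu-miR-453 and mmu-miR-496a-5p. The sequences below show that pair, miR-134-5p (known in rodent neurons for limiting the growth of dendritic spines) and both forms of miR-675 from H19, with the seed in capitals. The counts are of the host transcripts, and the mature forms were not measured.
mmu-miR-453: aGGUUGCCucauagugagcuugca
mmu-miR-496a-5p: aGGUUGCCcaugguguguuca
mmu-miR-134-5p: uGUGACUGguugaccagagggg
mmu-miR-675-5p: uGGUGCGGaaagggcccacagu
mmu-miR-675-3p: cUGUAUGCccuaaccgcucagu

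Nnat, Nespas, H19 and Cdkn1c were higher in both tumor groups than in normal astrocytes, and none of these 4 was called different between the tumor groups. Nnat (chr2:157560078-157562522, mm10) encodes neuronatin, a small membrane protein of the endoplasmic reticulum in immature neurons, expressed from the paternal copy. Its level was 0.721, 2.18, 0.0825 and 7.76 CPM in normal libraries 1 to 4, 185, 490, 674 and 387 CPM in tumor-derived libraries 1 to 4, and 155, 159, 170 and 158 CPM in GNP libraries 1 to 4. Every tumor-derived library lay above every GNP library, and every GNP library above every normal one. The means were 2.68 ± 3.49, 434 ± 204 and 164 ± 8.87 CPM. The log2 fold change of Nnat was 7.34 ± 0.99 in tumor-derived astrocytes (adjusted p = 0.00029) and 5.93 ± 0.98 in GNPs (adjusted p = 0.00115) against normal astrocytes. Without normal library 4, which held most of its normal counts, these were 8.82 and 7.41. The difference of 1.41 ± 0.97 between tumor-derived astrocytes and GNPs had an adjusted p of 0.364, although the libraries did not overlap, and a fit of these 2 groups alone gave 0.0415.

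Cdkn1c (chr7:143458350-143461050) encodes p57, an inhibitor of cyclin-dependent kinases that makes precursors leave the cell cycle, and is expressed from the maternal copy. It was at 0.631, 0, 0 and 0.187 CPM in the normal libraries, at 29.0, 7.94, 6.06 and 12.5 CPM in the tumor-derived ones and at 2.1, 2.46, 49.9 and 1.35 CPM in the GNPs. All tumor libraries of both kinds were above all normal ones, and GNP library 3 was far above the close GNP trio. The log2 fold change was 6.0 ± 1.32 for tumor-derived against normal astrocytes (adjusted p = 0.00527), 5.35 without tumor-derived library 1 and 7.57 without normal library 1. For GNPs against normal astrocytes the log2 fold change of Cdkn1c was 6.89 ± 1.43 (adjusted p = 0.00446), and without GNP library 3 it was 3.2 with an adjusted p of 0.146, so that call rests on 1 library. Between the tumor groups it was -0.9 ± 1.22, and 2.81 without that library.

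H19 (chr7:142575529-142578143) is a maternally expressed noncoding RNA that restrains fetal growth and hosts miR-675. It had 1 count over the 4 normal libraries, in library 2, against 277 counts in tumor-derived and 122 in GNP libraries. Tumor-derived library 1 carried 28.4 CPM and libraries 2 to 4 carried 0.83, 1.67 and 2.06 CPM, while the GNPs were at 4.76, 0.534, 7.54 and 0.224 CPM. The ratio of summed counts to normal astrocytes, scaled by library size, was 324 in tumor-derived astrocytes (exact 95% interval 57.7 to 12800) and 143 in GNPs (25.1 to 5680), both intervals covering counting error only. The adjusted p of edgeR was 0.00469 and 0.0112, and DESeq2 gave no adjusted p for H19 in either comparison. Without tumor-derived library 1 the fitted log2 fold change of H19 was 5.47 rather than 7.88, still called (adjusted p = 0.0116), and without normal library 2, which held the only normal count, it was 9.62. In GNPs it fell from 7.07 to 5.73 without library 3 and was not called (adjusted p = 0.0582), and it was 8.8 without normal library 2. Tumor-derived library 1 and all GNP libraries were also those with high striated muscle markers. Among GNPs, which count as 2 samples, H19 was highest in library 3, where these markers were lowest (590 CPM, against 829 to 847 CPM). GNP libraries 2 and 4 had less H19 than any tumor-derived library. The part of these markers in the level of H19 was not tested. Igf2, the growth factor gene that lies 72622 bases from H19 and shares its control region, was at 2.06 ± 1.3 CPM in normal, 70.1 ± 29.6 in tumor-derived and 36.4 ± 6.18 CPM in GNP libraries.

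Nespas (chr2:174281237-174295436), a paternally expressed antisense RNA of the Gnas cluster, had 0 counts in every normal library. It was at 10.0, 3.08, 4.29 and 5.52 CPM in tumor-derived libraries and at 0.111, 0.107, 2.51 and 0.224 CPM in GNPs. Normal astrocytes were set at their floor of 3 counts per library, by counting error only. Against it, the tumor-derived mean of 5.73 ± 3.04 CPM was at least 20.4-fold higher (adjusted p = 0.00329). The GNP mean of 1.33 ± 1.67 CPM was 4.73-fold above that floor (adjusted p = 0.0139), a value that rests on library 3. The close GNP trio, at a mean of 0.147 CPM, lay below the floor of every normal library (0.248 to 0.326 CPM), so no fold is bounded for it. The GNP call was lost without GNP library 3 (adjusted p = 0.115) and in a fit of these 2 groups alone (0.113), and in the close trio Nespas had 1 or 2 counts per library. Gnas itself, which encodes the stimulatory G protein alpha subunit, was at 2.7, 5.77, 21.1 and 17.9 CPM in normal, 4.04, 1.19, 2.51 and 1.5 CPM in tumor-derived and 1.55, 0.747, 0 and 1.01 CPM in GNP libraries. Its log2 fold change was -2.36 ± 1.01 in tumor-derived astrocytes (adjusted p = 0.0937) and -4.32 ± 1.5 in GNPs (adjusted p = 0.0501), just outside the threshold. The former passed in 3 of 19 alternatives (adjusted p of 0.0309 to 0.209 over all of them) and the latter in 8 (0.000796 to 0.16). Gnas and Nespas overlap on opposite strands, and without a stated strand setting their reads cannot be told apart where they overlap.

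Plagl1 and Kcnq1ot1 were higher in GNPs than in normal astrocytes. Plagl1 (chr10:13060504-13131694) encodes the zinc finger factor ZAC1, known to regulate other imprinted genes, and is expressed from the paternal copy. Its level was 1.26, 3.81, 0.66 and 8.51 CPM in normal, 0.49, 4.03, 2.51 and 14.3 CPM in tumor-derived and 67.0, 74.5, 40.9 and 73.8 CPM in GNP libraries. The 2 astrocyte groups overlapped and every GNP library was above both. The GNP mean of 56.4 ± 21.8 CPM was 15.8 times the normal mean of 3.56 ± 3.57 CPM (log2 fold change 3.98 ± 1.12, adjusted p = 0.021), and 4.89 on the log2 scale without normal library 4. Against GNPs, tumor-derived astrocytes (5.34 ± 6.16 CPM) stood at -3.39 ± 1.1 on the log2 scale with an adjusted p of 0.0658. That difference passed in 7 of the 19 alternatives for this result, among them DESeq2 (adjusted p = 0.0155), all 12 libraries kept separate (0.0107), and the fit without tumor-derived library 4 (-4.58, adjusted p = 0.0429), the library with the most Plagl1 of its group. Kcnq1ot1 (chr7:143212155-143296549), a paternal antisense RNA that silences neighbours including Cdkn1c, Slc22a18 and Phlda2, was at 154, 244, 144 and 173 CPM in normal, 169, 227, 163 and 284 CPM in tumor-derived and 352, 373, 462 and 364 CPM in GNP libraries. Its log2 fold change in GNPs was 1.21 ± 0.31 (adjusted p = 0.0135), and 1.02 with an adjusted p of 0.108 without GNP library 3. Between tumor-derived and normal astrocytes it was 0.24 ± 0.26 (adjusted p = 0.515), and against GNPs -0.97 ± 0.31 (adjusted p = 0.0633). Slc22a18, a member of a family of organic cation transporters, had counts of 46 and 146 in normal libraries 1 and 2, 0 in the other normal libraries, at most 2 in each tumor-derived library and 0 in all GNPs, and was too sparse to be tested. Those 2 normal libraries are the ones high in meningeal fibroblast markers, whose part in Slc22a18 was not tested. Phlda2, a growth-limiting gene of the placenta, was at 0 in all 12 libraries.

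**Figure D2:**
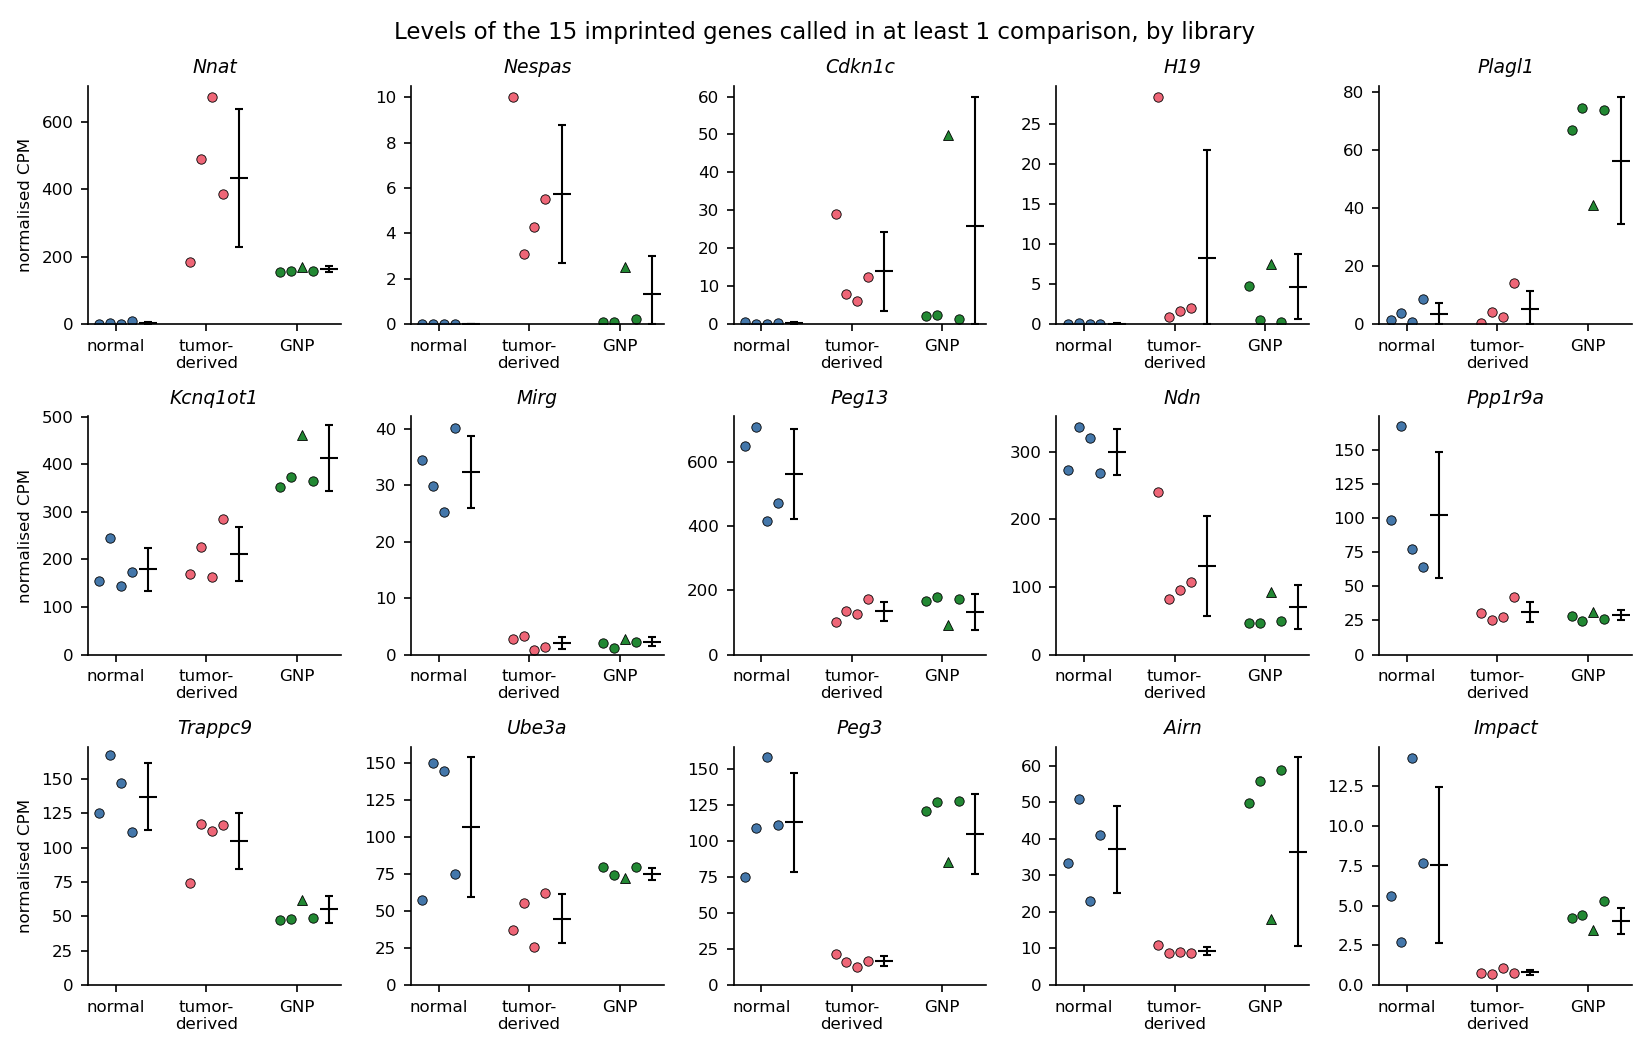
Normalised CPM (vertical axis, linear from 0, a scale of its own in each panel) of the 15 imprinted genes called in at least 1 comparison, with 1 point per library, GNP library 3 as a triangle, and the mean ± SD beside each group (lower bars cut at 0). The top row from Nnat to Plagl1 is near 0 in normal astrocytes, Mirg and Peg13 are highest there, and Peg3, Airn and Impact are lowest in all 4 tumor-derived libraries.

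Mirg, Peg13, Ndn and Ppp1r9a were lower in both tumor groups than in normal astrocytes, and none of the 4 was called different between the tumor groups. All 10 neuronal and Purkinje markers were lower in both tumor groups as well. Of 11 tested astrocyte markers 7 were lower in tumor-derived astrocytes and 8 in GNPs, and of 7 oligodendrocyte markers 3 and 5. In both the astrocyte and the oligodendrocyte list 1 marker was higher in tumor-derived astrocytes and 0 in GNPs. The part of any of these cell types in the 4 genes was not tested. Mirg (chr12:109729764-109749460) is the microRNA host at the far end of the maternal transcripts of the Dlk1-Dio3 cluster. It was at 34.4, 29.9, 25.3 and 40.2 CPM in normal libraries, at 2.69, 3.2, 0.836 and 1.4 CPM in tumor-derived ones and at 1.99, 1.17, 2.83 and 2.13 CPM in GNPs. The lowest normal library was far above the highest of either tumor group. The means of 32.4 ± 6.38, 2.03 ± 1.1 and 2.3 ± 0.751 CPM gave log2 fold changes of -3.99 ± 0.57 in tumor-derived astrocytes (adjusted p = 0.000431) and -3.83 ± 0.76 in GNPs (adjusted p = 0.00359). The difference between the tumor groups was -0.17 ± 0.63 (adjusted p = 0.894).

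The other maternal transcripts of the cluster were more uneven. Meg3, the long noncoding RNA at its start, was at 105, 21.5, 28.4 and 18.0 CPM in normal, 28.5, 11.3, 6.38 and 7.68 CPM in tumor-derived and 3.43, 2.14, 11.9 and 4.15 CPM in GNP libraries. Its log2 fold change was -1.68 ± 0.73 in tumor-derived astrocytes (adjusted p = 0.0946), -2.36 without tumor-derived library 1 (adjusted p = 0.0425) and -0.75 without normal library 1, the one at 105 CPM (adjusted p = 0.399). In GNPs it was -2.52 ± 0.99 (adjusted p = 0.0799), -1.59 without normal library 1 (adjusted p = 0.187), and called in 3 of 19 alternatives, DESeq2 among them (0.0109). Rian, which carries small nucleolar RNAs and further microRNAs, was at 4.32, 0, 0.413 and 9.35 CPM in normal libraries and at 0 to 0.936 CPM in tumor-derived ones, with 1.88, 1.39, 0 and 1.01 CPM in GNPs (adjusted p of 0.147 and 0.494 against normal astrocytes). The 3 protein-coding genes of this cluster that are expressed from the paternal copy had no counts at all in the 12 libraries: Dlk1, a membrane ligand of precursors, Rtl1, a gene derived from a retrotransposon, and Dio3, an enzyme that inactivates thyroid hormone.

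Peg13 (chr15:72805600-72810324) is a paternally expressed noncoding RNA that lies inside an intron of Trappc9, on the same strand. Its level was 650, 711, 418 and 474 CPM in normal, 103, 136, 125 and 174 CPM in tumor-derived and 168, 180, 92.8 and 172 CPM in GNP libraries. The normal mean of 563 ± 140 CPM was 4.17 times the tumor-derived mean of 135 ± 29.6 CPM and 4.23 times the GNP mean of 133 ± 56.9 CPM. The log2 fold changes were -2.06 ± 0.29 (adjusted p = 0.00036) and -2.08 ± 0.38 (adjusted p = 0.00202). Trappc9 (chr15:72589621-73061204), a subunit of a complex of vesicle traffic, was at 125, 167, 147 and 111 CPM in normal, 74.4, 117, 112 and 116 CPM in tumor-derived and 47.4, 48.2, 61.8 and 48.8 CPM in GNP libraries. Trappc9 was thus lower in GNPs than in normal astrocytes (-1.32 ± 0.34, adjusted p = 0.0136), while the difference of tumor-derived from normal astrocytes was -0.39 ± 0.26 (adjusted p = 0.275). Against GNPs, tumor-derived astrocytes were at 0.93 ± 0.33 (adjusted p = 0.0873, and 0.0164 with DESeq2).

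Ndn (chr7:62348277-62349928) encodes necdin, a paternally expressed protein that favours neuronal differentiation and survival. It was at 273, 337, 320 and 269 CPM in normal, 241, 81.8, 95 and 107 CPM in tumor-derived and 46.1, 46.4, 93.1 and 49.7 CPM in GNP libraries. Tumor-derived library 1, which also had the most neuronal markers of its group, lay close to the normal range and the other 3 far below it. The log2 fold change of Ndn was -1.19 ± 0.36 in tumor-derived astrocytes (adjusted p = 0.0245) and -1.66 without library 1 (adjusted p = 0.0023). The call was lost without tumor-derived library 2, 3 or 4 (adjusted p of 0.0735, 0.0752 and 0.0706) and with upper quartile factors (adjusted p = 0.0518). In GNPs it was -2.09 ± 0.49 (adjusted p = 0.00815). Magel2, a related gene 27050 bases away, and Snurf, at the start of the Snrpn transcript, had 0 counts in every library. Snurf lies within Snrpn on the same strand, so its reads may have been left out or given to Snrpn, a splicing factor gene at 370 ± 160, 79.8 ± 15.3 and 56.5 ± 6.01 CPM in normal, tumor-derived and GNP libraries.

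Ppp1r9a (chr6:4902917-5165661) encodes neurabin, a scaffold that binds actin and protein phosphatase 1 at synapses. It was at 98.1, 167, 77.4 and 63.9 CPM in normal, 30.2, 25.3, 27.7 and 42.1 CPM in tumor-derived and 28.2, 24.8, 31.3 and 25.9 CPM in GNP libraries, with every normal library above all others. Its log2 fold change was -1.7 ± 0.37 in tumor-derived astrocytes (adjusted p = 0.00459) and -1.82 ± 0.48 in GNPs (adjusted p = 0.0149, and 0.0677 without GNP library 3). Ube3a (chr7:59228750-59311536), a ubiquitin ligase that neurons express from the maternal copy only and glia from both, was at 57.2, 150, 145 and 75.4 CPM in normal and 37.1, 55.3, 25.6 and 62.2 CPM in tumor-derived libraries, ranges that overlapped. Its log2 fold change of -1.25 ± 0.4 had an adjusted p of 0.0305. The call was lost without normal library 2 (0.0716) or 3 (0.0686), without tumor-derived library 1 (0.074), 2 (0.052) or 3 (0.0885), and with upper quartile factors (0.0629). GNPs were at 72.4 to 80.1 CPM, and their log2 fold change against normal astrocytes was -0.51 ± 0.49 (adjusted p = 0.485). Snhg14, the paternal transcript that runs antisense to Ube3a in neurons, was at 15.1 ± 9.3 CPM in normal, 2.99 ± 1.28 in tumor-derived and 0.606 ± 0.0323 CPM in GNP libraries.

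Peg3 and Airn were lower in tumor-derived astrocytes than in both other groups, and Impact had the same order. Peg3 (chr7:6703892-6730421) encodes a large paternally expressed zinc finger protein. It was at 74.7, 109, 158 and 111 CPM in normal, 21.4, 15.7, 12.8 and 17.0 CPM in tumor-derived and 121, 127, 85.7 and 128 CPM in GNP libraries. The normal and GNP libraries overlapped, and all 4 tumor-derived libraries lay far below both. The tumor-derived mean of 16.7 ± 3.61 CPM compared with 113 ± 34.3 CPM in the normal group (-2.76 ± 0.34 on the log2 scale, adjusted p = 0.000146) and 105 ± 27.9 CPM in GNPs (-2.66 ± 0.37, adjusted p = 0.00188). Peg3 was called in these 2 comparisons under all 19 alternatives, leaving out each library included. Between GNPs and normal astrocytes its log2 fold change was -0.1 ± 0.38 (adjusted p = 0.873). Tumor-derived astrocytes thus had less Peg3 than either other group, and the part of other cell types in this was not tested.

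Airn (chr17:12741311-12860122), the paternal noncoding RNA that silences Igf2r on the same chromosome, was at 33.5, 50.9, 22.9 and 40.9 CPM in normal, 10.9, 8.77, 8.99 and 8.8 CPM in tumor-derived and 49.9, 55.7, 18.1 and 58.8 CPM in GNP libraries. The highest tumor-derived library was below the lowest of the other groups. The log2 fold change was -1.98 ± 0.45 against normal astrocytes (adjusted p = 0.00598) and -1.96 ± 0.51 against GNPs (adjusted p = 0.0304). Without GNP library 3, whose Airn was the lowest of its group, the latter was -2.55 (adjusted p = 0.0276), and it was not called without tumor-derived library 2, 3 or 4 (adjusted p of 0.0851, 0.0784 and 0.0763). Several other genes overlap Airn, and reads of opposite strands could not be separated. Igf2r, the receptor that removes IGF2, was low throughout, at 5.4 ± 4.98, 4.22 ± 1.09 and 10.8 ± 4.33 CPM in normal, tumor-derived and GNP libraries.

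Impact, a paternally expressed inhibitor of the amino acid sensing kinase GCN2 that is abundant in neurons, was at 5.59, 2.72, 14.3 and 7.67 CPM in normal, 0.735, 0.711, 1.05 and 0.749 CPM in tumor-derived and 4.21, 4.38, 3.46 and 5.27 CPM in GNP libraries. The tumor-derived libraries held 6 to 10 counts each and lay below all others. Its log2 fold change was -3.21 ± 0.77 against normal astrocytes (adjusted p = 0.00818). Against GNPs it was -2.3 ± 0.84 with an adjusted p of 0.094, which became 0.0144 with all 12 libraries kept separate and 0.0443 with DESeq2.

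Some genes were described beside a neighbour at the same locus. The start of Usp29, which encodes a ubiquitin protease, is 161 bases from that of Peg3, in the windows printed above. Usp29 was at 14.0, 9.03, 20.5 and 8.32 CPM in normal and 11.4, 11.9, 19.6 and 18.8 CPM in tumor-derived libraries, which overlapped, with a log2 fold change of 0.25 ± 0.48 (adjusted p = 0.724). In GNPs it was at 6.62 to 9.22 CPM (-0.66 ± 0.61 against normal astrocytes, adjusted p = 0.465). Nnat lies within Blcap on the opposite strand. Blcap, a gene known for its loss in bladder cancer, was at 230 ± 57.9 CPM in normal, 69.9 ± 13.4 CPM in tumor-derived and 40.4 ± 0.494 CPM in GNP libraries, a log2 fold change of -1.72 ± 0.27 (adjusted p = 0.000791) and -2.51 ± 0.37 (adjusted p = 0.000521) against normal astrocytes. Blcap and Nnat thus moved in opposite directions in both tumor groups. Kcnq1, the potassium channel gene in which Kcnq1ot1 lies, had 0 counts in all GNP libraries, where Kcnq1ot1 was highest. Kcnq1 was at 0, 0, 11.6 and 0.374 CPM in normal and at 3.31, 2.37, 0.732 and 7.21 CPM in tumor-derived libraries. None of its 3 comparisons was called (adjusted p of 0.0905 to 0.944). H19 and Igf2, described above, were higher in both tumor groups, and Ube3a and Snhg14 were both lower in tumor-derived astrocytes (Snhg14 -2.33 ± 0.63, adjusted p = 0.0148). The difference between partners of a pair was not tested.

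**Figure D3:**
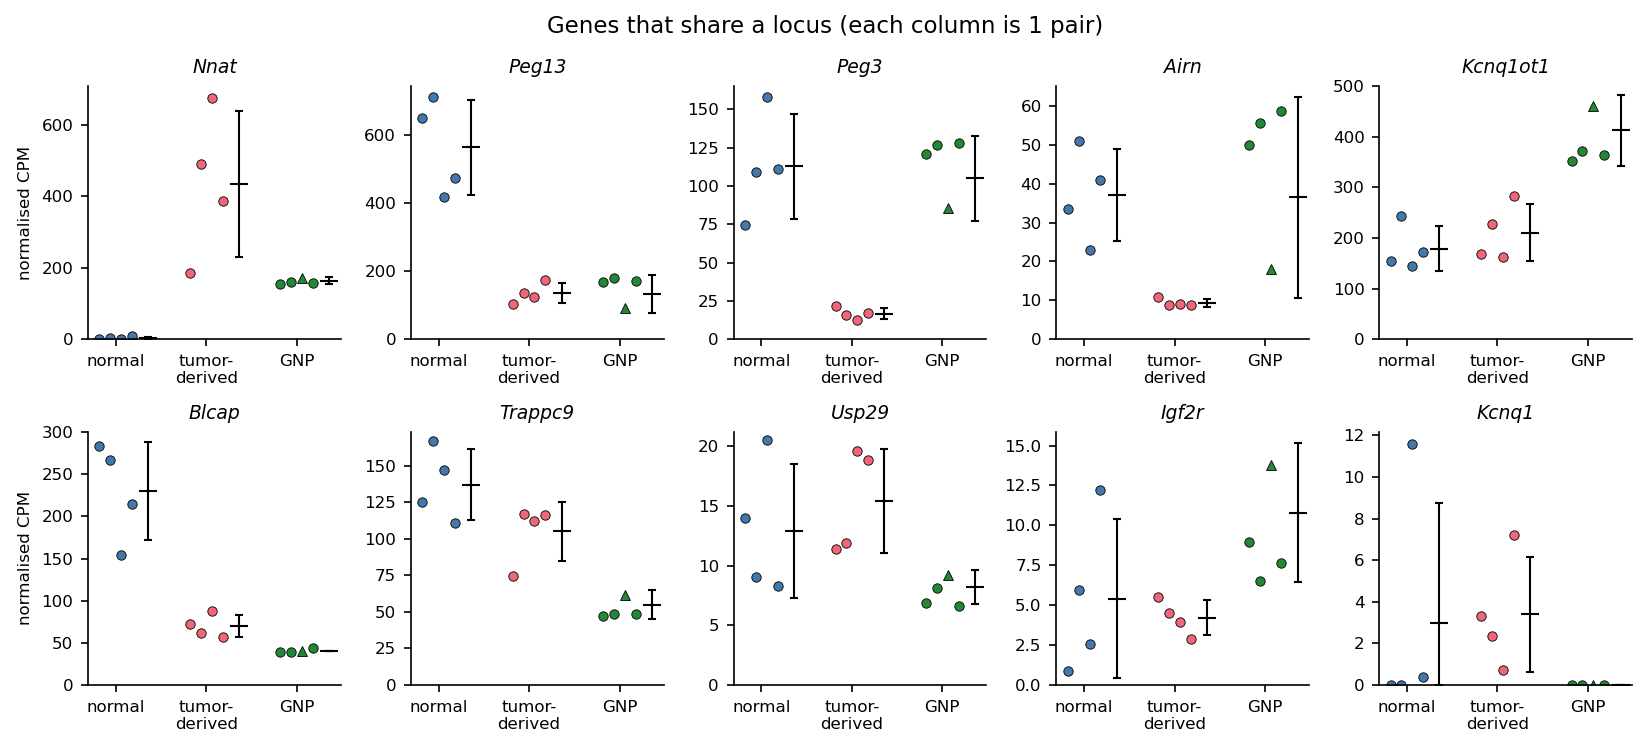
Normalised CPM (vertical axes, linear from 0, a scale of its own in each panel) for 5 pairs of genes that share a locus, 1 pair per column, with points, triangle and bars as for the called genes. Nnat is high where Blcap is low, Peg3 is low in tumor-derived astrocytes where Usp29 overlaps the normal range, and Peg13 is as low in tumor-derived astrocytes as in GNPs while Trappc9 is not.

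The remaining tested genes passed in no comparison. Grb10, an adaptor that inhibits insulin and IGF receptors, was at 15, 19.9, 5.2 and 9.26 CPM in normal and 8.82, 1.3, 2.4 and 2.15 CPM in tumor-derived libraries (log2 fold change -1.75 ± 0.74, adjusted p = 0.0886). Without tumor-derived library 1 it was called, at -2.65 (adjusted p = 0.0205). Zdbf2, a gene linked to feeding and growth of newborn mice, was at 17.4 CPM in tumor-derived library 1 and at 0.209 to 0.593 CPM in the other 3, against 0 to 5.24 CPM in normal and 6.64 to 8.65 CPM in GNP libraries. Mest, a hydrolase-like protein of growing mesoderm, had all of its normal counts in library 4 (7.57 CPM), the library high in choroid plexus and ependyma markers, and was at 3.03 to 7.71 CPM in tumor-derived libraries and 0.664, 0.32, 13.7 and 0.897 CPM in GNPs. Without normal library 4 Mest was called higher in tumor-derived astrocytes and in GNPs (adjusted p of 0.00711 and 0.00717). Sgce, a sarcoglycan mutated in a form of dystonia, was at 10.1 ± 3.67, 10.9 ± 2.46 and 18.4 ± 1.8 CPM in normal, tumor-derived and GNP libraries, none of its 3 comparisons being called (adjusted p of 0.279 to 0.887). Copg2, a coat protein of vesicles that overlaps the end of Mest, was at 43.6 ± 13.9, 30.6 ± 6.28 and 21.8 ± 2.35 CPM (adjusted p of 0.132 to 0.513). A p that missed the threshold does not show equal levels, and standard errors of these 9 genes reached 2.2 on the log2 scale.

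**Figure D4:**
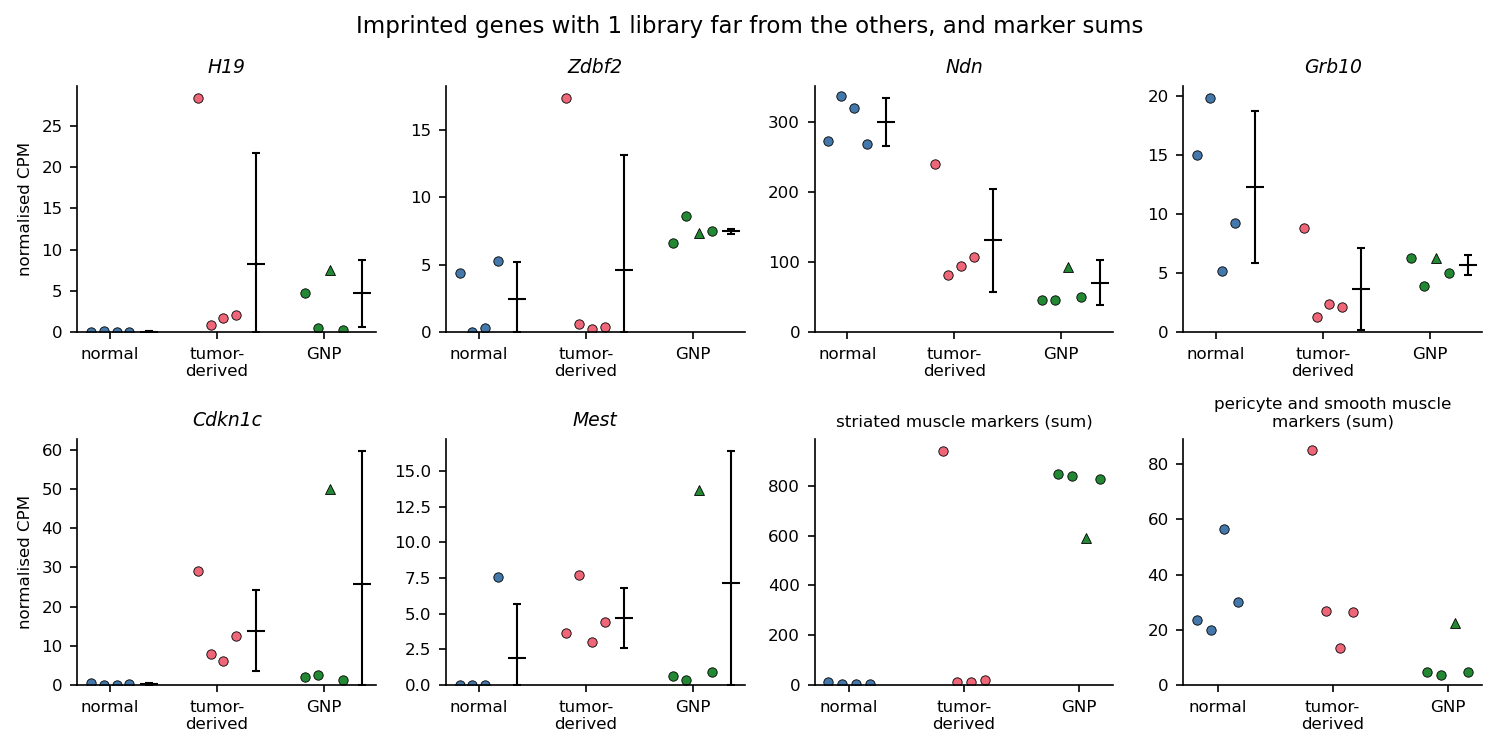
Normalised CPM (vertical axes, linear from 0) of 6 imprinted genes with 1 library far from the others, and the summed CPM of 2 marker lists, with 1 point per library and GNP library 3 as a triangle; means ± SD are drawn for the genes (lower bars cut at 0). H19, Zdbf2, Ndn and Grb10 are highest of their group in tumor-derived library 1, and Cdkn1c and Mest are highest of theirs in GNP library 3. Tumor-derived library 1 also differs in several marker lists, with 941 CPM of striated muscle markers among them. Their part in these genes was not tested.

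Of the 34 listed genes, 10 were not tested because their counts were too low, and 6 of them (Dlk1, Snurf, Magel2, Phlda2, Rtl1 and Dio3) had 0 counts in all 12 libraries. Peg10, a gene derived from a retrotransposon that begins 98 bases from Sgce, had 4 counts over all libraries, although Sgce was detected in each. Zim1, a maternally expressed zinc finger gene beside Peg3, had 15 of its 16 counts in GNPs, 1 to 8 per library. Asb4, a ubiquitin ligase subunit, had 22 counts in all. Slc22a18 is described above.

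A list of 50 further imprinted genes was examined, of which 47 were in the table and 30 were tested. Tumor-derived astrocytes had 5 of the 30 higher and 9 lower than normal astrocytes (16.7% and 30.0%), and GNPs had 4 higher and 10 lower (13.3% and 33.3%), beside the shares of all genes given above. Igf2 rose in both, by 5.09 ± 0.61 (adjusted p = 0.000144) and 4.14 ± 0.63 (adjusted p = 0.00071) on the log2 scale. Peg12, a paternally expressed gene near Ndn, was at 0 in normal astrocytes and 3.87 ± 2.54 CPM in tumor-derived ones, at least 13.8-fold higher (adjusted p = 0.0021), and at least 2.62-fold higher in GNPs (0.735 ± 0.299 CPM, adjusted p = 0.0117, and 0.11 in a fit of these 2 groups alone). H13, a signal peptide peptidase, was higher in tumor-derived than in normal astrocytes (1.35 ± 0.24, adjusted p = 0.00181), and Mcts2, a gene lying inside H13, in GNPs (2.76 ± 0.51, adjusted p = 0.00232) and in tumor-derived astrocytes (1.53 ± 0.44, adjusted p = 0.0199). Among the fallen were Rasgrf1, an exchange factor of neuronal Ras signalling, Nap1l5, a small gene of nervous tissue, and Snrpn. Rasgrf1 went from 229 ± 99.2 CPM to 14.5 ± 2.12 CPM in tumor-derived astrocytes (-3.98 ± 0.39, adjusted p = 6e-05) and to 0 counts in GNPs, at least 703-fold lower (adjusted p = 6.92e-06). On the log2 scale Nap1l5 changed by -5.64 ± 0.71 (adjusted p = 0.000198) and Snrpn by -2.22 ± 0.34 (adjusted p = 0.000637) in tumor-derived astrocytes, and in GNPs Nap1l5 by -5.19 ± 0.94 (adjusted p = 0.00213) and Snrpn by -2.71 ± 0.45 (adjusted p = 0.00128).

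Between tumor-derived astrocytes and GNPs, 3 of these 30 were higher and 2 lower (10.0% and 6.67%, against 7.84% and 4.36% of all genes). Rasgrf1 was at least 44.5-fold higher in tumor-derived astrocytes (adjusted p = 0.000263). Begain, a synaptic protein gene, differed by 3.37 ± 0.76 (adjusted p = 0.0165) and H13 by 1.2 ± 0.31 (adjusted p = 0.0297), and both calls were lost without GNP library 3 (adjusted p of 0.0809 and 0.12), that of H13 also without tumor-derived library 2 or 3 (0.0806 and 0.0696). Cd81, a tetraspanin, was at 55.8 ± 12 CPM in tumor-derived astrocytes, below 244 ± 122 CPM in normal astrocytes (-2.13 ± 0.36, adjusted p = 0.00118) and 197 ± 31.5 CPM in GNPs (-1.82 ± 0.4, adjusted p = 0.0157, and 0.0539 without GNP library 3). Commd1, a copper metabolism gene, was lower than in GNPs (-2.27 ± 0.63, adjusted p = 0.0381), a call lost without any 1 of the 4 tumor-derived libraries or without GNP library 3 (adjusted p of 0.0634 to 0.101).

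Of 20 factors known to set, protect, read or remove imprints, 17 were tested. Tumor-derived astrocytes had 7 higher and 1 lower than normal astrocytes (41.2% and 5.88%, against 17.4% and 16.0% of all genes), GNPs had 6 higher and 0 lower (35.3%, against 14.1% of all genes higher and 13.4% lower), and the tumor groups differed in 1, lower in tumor-derived astrocytes. For the 0 lower in GNPs, 1 factor was lower at an unadjusted p under 0.05 and DESeq2 called 1. For the 0 higher in tumor-derived astrocytes than in GNPs, both counts were 0. Zfp57 was at 0.717 ± 0.722 CPM in normal, 19.2 ± 11.3 in tumor-derived and 21.8 ± 7.17 CPM in GNP libraries, with log2 fold changes of 4.71 ± 1.0 (adjusted p = 0.00418) and 4.9 ± 1.07 (adjusted p = 0.00598, and 0.0558 in a fit of these 2 groups alone), or 5.33 and 5.51 without normal library 4. Trim28, the corepressor that ZFP57 recruits, rose by 1.43 ± 0.27 (adjusted p = 0.00217) in tumor-derived astrocytes and 0.96 ± 0.31 (adjusted p = 0.0397) in GNPs. Uhrf1, which brings the maintenance methyltransferase to newly copied DNA, rose by 6.09 ± 1.11 (adjusted p = 0.00189) and 6.29 ± 1.17 (adjusted p = 0.00242), or 8.27 and 8.46 without normal library 4. Dnmt1, that methyltransferase, rose by 1.76 ± 0.4 (adjusted p = 0.0059) in tumor-derived astrocytes and 2.47 ± 0.45 (adjusted p = 0.00228) in GNPs. Eed, a subunit of Polycomb complex 2, was at 8.01 ± 1.93 CPM in tumor-derived astrocytes, against 43.9 ± 2.79 CPM in GNPs (-2.45 ± 0.5, adjusted p = 0.0111, and 0.0599 without GNP library 3) and 21.2 ± 9.27 CPM in normal astrocytes (-1.4 ± 0.43, adjusted p = 0.0263). The latter call was lost without normal library 2 (0.0607) and without tumor-derived library 2, 3 or 4 (0.0832, 0.0635 and 0.0749), and also with upper quartile factors (0.0508), no filter on low counts (0.0641) or 2 groups only (0.0509). Uhrf1 and Dnmt1 are also genes of dividing cells, and 8 of 9 tested markers of granule progenitors and cell division were higher in both tumor groups, whose part in these values was not tested.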

How the data were processed

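Counts per gene were deposited by the authors as 1 table of 12 mouse libraries. The cDNA was amplified from laser-captured cells and made into libraries with Nextera XT, per the labels' protocols. Reads were checked with FastQC and aligned with STAR to mm10, per the submitters' processing notes; no source used here gives the counting program, annotation or strand setting, and overlapping or antisense genes cannot be told apart. The table had 47284 lines, of which 767 repeats were removed, and 27 symbols turned into dates by a spreadsheet were restored, which left 46517 genes. The raw counts were not scaled by gene length.

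GNP libraries 1, 2 and 4 were summed into 1 sample. Over genes with 10 to 49 counts, their 3 pairs had a chi-square per degree of freedom of 1.21 to 1.59. The 15 remaining within-group pairs had 4.17 to 14.25. Over all genes with at least 10 counts, the ranges were 1.43 to 7.52 and 24.03 to 184.34, so the 3 pairs also differed by more than counting error. edgeR 4.0.16 in R 4.3.3 was run with TMM factors and robust quasi-likelihood F-tests (two-sided) on 10 samples in 3 groups. The 14393 genes that passed filterByExpr (count minimum 10, total minimum 15) were tested, with Benjamini-Hochberg adjustment over all of them and calls at 0.05. The common biological coefficient of variation was 0.722. The SE of a log2 fold change is its size divided by the square root of F. CPM are TMM-normalised, and ± is the SD over samples. The fit was tested on simulated data. Alternatives were DESeq2 1.42.0, RLE and upper quartile factors, no filter, a filter of CPM 10, all 12 libraries kept separate, 2 groups only, and each library left out.

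The 34 genes, the other lists and the markers were chosen with earlier results of these data known. Called genes are given by library. Of the further lists, at most 3 called genes per comparison and direction, by adjusted p, are named. Libraries are numbered in accession order. Sequences and promoter windows are RefSeq's, build GRCm38.p6.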

Additional observations from a re-analysis of the deposited data

Results flagged for a closer look

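In groups of 4 libraries, the highest or lowest value was set apart from the rest by Dixon's 95% criterion in 12 of 47 groups of imprinted gene levels. Chance gives about 1 in 20 for normally distributed values, which CPM with zeros are not, so that rate is no guide here. With 3 libraries at 0, any count sets the fourth apart. Tumor-derived library 1 held 6 of the 12. In that library H19 was at 28.4 CPM, against 0.83 to 2.06 CPM in the other tumor-derived libraries. Zdbf2 was at 17.4 CPM there, against 0.209 to 0.593 CPM, and Grb10 at 8.82 CPM, against 1.3 to 2.4 CPM. Ndn was at 241 CPM, against 81.8 to 107 CPM, and Airn at 10.9 CPM, against 8.77 to 8.99 CPM. Trappc9 was the 1 gene of the 6 that was lower there, at 74.4 CPM against 112 to 117 CPM. The same library had 941 CPM of striated muscle and 85.1 CPM of pericyte and smooth muscle markers, and more neuronal (2080 against 1080 to 1180 CPM), fewer astrocyte (972 against 1530 to 2040 CPM) and fewer progenitor and division markers (1760 against 2550 to 2850 CPM) than the other 3. The part of any of these in the 6 levels was not tested.

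The other 6 values were spread over 5 libraries. Among tumor-derived libraries, Sgce was at 14.5 CPM in library 3 (9.36 to 9.92 CPM in the others), Impact at 1.05 CPM in library 3 (0.711 to 0.749 CPM) and Rian at 0.936 CPM in library 4 (0 to 0.122 CPM). Among normal libraries, Meg3 was at 105 CPM in library 1 (18.0 to 28.4 CPM in the others). Mest was at 7.57 CPM in normal library 4 and H19 at 0.109 CPM, a single count, in normal library 2, with 0 in the others. The GNP group, with 3 close libraries, was not examined in this way.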

How the results depend on the processing

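Counts were computed under 19 alternatives and each gene under 17 to 19, since the filter of CPM 10 and DESeq2 gave no value for some sparse genes. Among member counts, those higher in tumor-derived than in normal astrocytes were 4 to 5 with a library left out and 2 with a filter of CPM 10; those lower were 6 to 9 with a library left out. Against GNPs, 2 members were higher with all 12 libraries separate, 1 with DESeq2 and 2 in a fit of 2 groups. Members lower than GNPs were 5, 4 and 5 under the same settings, 4 with a filter of CPM 10, and 1 to 3 with a library left out. In GNPs against normal astrocytes, members higher were 2 to 7 with a library left out, the 2 without GNP library 3. Members lower were 8 with all libraries separate, with DESeq2 or with no filter. Over all genes, those higher in tumor-derived astrocytes than in GNPs were 1129, but 2900 with all libraries separate, 2276 with DESeq2, 2466 in a fit of 2 groups and 467 to 1453 with a library left out. Those lower were 628, but 1852, 981, 1831 and 141 to 883. In a fit of GNPs and normal astrocytes alone, 781 genes were higher rather than 2023, and 1223 lower rather than 1929, which became 3423 with all libraries separate. The cause of these shifts was not tested. Upper quartile factors moved the median log2 fold change of all genes by 0.21 (tumor-derived against normal), 0.15 (GNP against normal) and 0.06, and RLE factors by 0.06, -0.06 and 0.12.

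Signs turned only in comparisons that were not called. The ranges are over fits with a library left out. For tumor-derived against normal astrocytes, Plagl1 ranged from -0.6 to 1.5, Sgce from -0.07 to 0.35 and Zdbf2 from -2.65 to 1.54. For tumor-derived astrocytes against GNPs, Cdkn1c ranged from -1.55 to 2.81, H19 from -1.61 to 2.16, Mest from -0.95 to 2.9, Mirg from -0.47 to 0.2, Peg13 from -0.36 to 0.12 and Ppp1r9a from -0.05 to 0.25. With all libraries separate, Cdkn1c was 0.05, Mest 0.33, Mirg 0.08 and Peg13 -0.09, and with no filter Peg13 was -0.0. For GNPs against normal astrocytes, Airn ranged from -0.19 to 0.56, Mest from -1.59 to 9.4 and Peg3 from -0.26 to 0.14. Airn was 0.18 with all libraries separate, 0.11 with upper quartile factors and 0.05 with a filter of CPM 10, and Peg3 0.05 with upper quartile factors. DESeq2 gave no adjusted p for 6 of the members' values, all of them of H19 or Mest. No paired analysis was possible because the labels give no replicate numbers shared between groups. With 2 GNP samples, and a low count in many members, small differences were not detectable at this depth.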
